A study of Mus musculus with 46 samples.

Results

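MHC class II presentation was followed through 10 genes of the RNA-seq table, chosen by name and not by their values from 48795 genes: the class II chain genes H2-Aa, H2-Ab1 and H2-Eb1, the invariant chain gene Cd74, the transactivator gene Ciita, the peptide editor genes H2-DMa, H2-DMb1 and H2-DMb2, and H2-Oa and H2-Ob, which encode the modulator of the editor. All 10 were found. Values are FPKM, fragment numbers corrected for gene length and for the size of the library, so that levels can be set side by side between genes. The question put to these genes was how class II transcripts differ between MC-38 cells in culture and tumors, and between tumors with and without PD-1 blockade or deletion.

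Bulk RNA of 46 samples in 8 groups was at hand. MC-38, a mouse colon carcinoma line, was taken from untreated culture (3 samples) or grown under the skin of female C57BL/6NTac mice of 8 to 10 weeks, where untreated baseline tumors (3, with no time given) were the first tumor group. Mice then received the PD-1 antibody muDX400 (5 mg/kg, starting 7 days after implant) or an isotype control antibody. Tumors were taken after 1 dose (5 tumors with isotype control and 5 with PD-1 Ab, 4 days of treatment, day 11 after implant) or after 2 doses (5 and 5 tumors, 8 days of treatment, day 15). In the deletion model, 10 mice labelled PD-1cKO carried creERT2 at ROSA26 and floxed Pdcd1, and their 10 WT littermates were the controls. Both of these groups received tamoxifen at 40 mg/kg and are labelled day 28. The paper's methods give an earlier day of collection and its results table gives day 28, and the label is used here. Cre at ROSA26 is not limited to T cells, so the deletion concerns every cell type of the host that the drug reaches, and not the implanted MC-38 cells. The labels number the tumors of a group without saying more about their origin, and the paper's heat map legend speaks of individual animals. The p-values set a difference against the spread between these samples.

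MHC class II molecules present peptides from endosomes to CD4 T cells. An alpha and a beta chain assemble with the invariant chain, which is cut down in endosomes to a short peptide in the groove. H2-DM exchanges this peptide for others, and H2-O, known best from B cells and some dendritic cells, restrains H2-DM. Transcription of these genes depends on CIITA, which docks on factors bound to the X and Y boxes of class II promoters (RFX, CREB and NF-Y). Dendritic cells, B cells and macrophages express class II by themselves, and many other cells do so after interferon-gamma. C57BL/6 mice make the I-A molecule from H2-Aa and H2-Ab1, and lack a working H2-Ea gene, the partner of H2-Eb1.

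Some features of the samples bear on what follows. Isotype control replicate 1 after 1 dose had 54.6% of its FPKM in mitochondrial genes, against 2.89% to 7.65% in the other samples of the antibody study, and it was the lowest of its group for 9 of the 10 genes. Short noncoding RNAs held 30.2% to 66.5% of the FPKM in the tamoxifen-treated tumors and at most 0.0746% in all other samples, so levels are compared within a study only. Gene-level Pdcd1 was higher under the PD-1cKO label (5.05 to 19.9 FPKM in PD-1cKO and 1.71 to 7.02 in WT tumors, log2 difference 1.49). This value counts all exons and not the deleted ones alone, and it does not check the label. The sample identifiers of the tamoxifen-treated tumors form 3 runs with 7 PD-1cKO and 0 WT, 1 and 9, and 2 and 1 tumors.

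Of the 10 genes, 8 lie within 224 kb of the mouse MHC, on chromosome 17 between 34092340 and 34316674 (GRCm38, GENCODE M21). Ciita lies at chr16:10480059-10528418, and Cd74 outside the MHC as well. RefSeq promoter windows (GRCm38.p6, from 250 bases before to 50 bases after the start of transcription) were at hand for 7 of the genes, in 8 windows. The stretches of H2-Eb1, H2-Ob and H2-Aa are printed because they show the site at which the class II transcription factors are known to dock, from 130 to 21 bases before the start. Capitals mark the X box core (AGNNAC directly followed by NNNTG, where N is any base) and ATTGG (Y box), or the Y box read on the other strand (CCAAT).
H2-Eb1, chr17:34305737-34305846, plus strand: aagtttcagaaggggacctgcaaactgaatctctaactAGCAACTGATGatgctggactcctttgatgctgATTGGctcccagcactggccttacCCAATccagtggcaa
H2-Ob, chr17:34238775-34238884, plus strand: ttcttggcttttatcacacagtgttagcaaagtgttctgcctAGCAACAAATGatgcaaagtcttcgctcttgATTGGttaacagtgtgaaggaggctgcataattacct
H2-Aa, chr17:34287844-34287953, minus strand: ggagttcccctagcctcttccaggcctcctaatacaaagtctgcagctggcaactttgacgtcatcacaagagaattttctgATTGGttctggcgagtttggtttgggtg
In H2-Eb1 the X box letters began 92 bases before the start and the Y box 59 bases before it, with 22 bases between them. H2-Ob held the same pair at 88 and 57 bases, with 20 between. H2-DMb1 held it at 95 and 61 bases with a gap of 23, there with the X box letters AGTAACTGATG. GENCODE M21 places the start of H2-DMb1 upstream of this RefSeq start, so that the pair lies inside its first exon in that annotation. The H2-Aa window held the Y box letters 48 bases before the start and no match to these X box letters.

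Both motifs were searched on both strands of all 32851 promoter windows. The X box letters were in 4 of the 8 windows of these genes and in 14.8% of all windows. The Y box letters were in 7 of the 8 and in 37.4% of all windows. The pair in this order on 1 strand, with 10 to 30 bases between, was in 3 of the 8 and in 0.286% of all windows (94 windows). H2-Oa had both motifs too far apart to count as a pair, at 141 and 43 bases before the start. H2-DMb2 had the Y box alone at 90 bases. GENCODE M21 starts H2-DMb2 at 34143307 and H2-DMa at 34119541, upstream of their RefSeq windows, which lie inside these genes in that annotation. A match is a description of letters and not of a bound site.

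**Figure D1:**
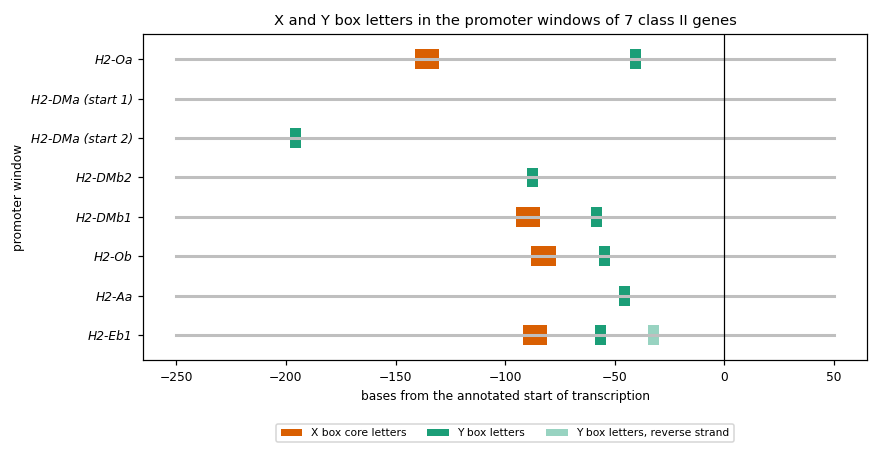
Positions of the X box core letters (orange, 11 bases) and the Y box letters (green, 5 bases, pale on the reverse strand) in 8 RefSeq promoter windows of 7 class II genes. The x axis gives bases from the annotated start of transcription, and each grey line is a window of 300 bases. In H2-DMb1, H2-Ob and H2-Eb1 the X box letters lie 88 to 95 bases before the start and are followed by a Y box after 20 to 23 bases.

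Cultured MC-38 cells held next to no class II transcript. H2-Eb1, H2-DMb2 and H2-Ob were listed at 0 FPKM in all 3 cultures. H2-Aa was 0.0437, 0 and 0 FPKM, and H2-Ab1 0.358, 0.388 and 0.217. Cd74 was 0.148, 0.309 and 0.216 FPKM, and Ciita 0.0275, 0 and 0.0071. The exceptions were the editor genes H2-DMa (1.19, 1.21 and 1.24 FPKM) and H2-DMb1 (3.45, 4.62 and 4.78). H2-Oa was at most 0.0865 FPKM. The pan-leukocyte gene Ptprc was at most 0.0078 FPKM in these cultures, and Adgre1, C1qa, C1qb and C1qc of the 9 macrophage markers were at 0 in all 3. The 9 markers still summed to 8.96 to 10.5 FPKM in the cultures, with Csf1r at 1.74 to 1.76. The 5 epithelial markers of a colon carcinoma were also low in the cultures, with a summed level of 0.616 to 0.742 FPKM.

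The question of the next comparison was which of these transcripts tumors held beyond the cells implanted. In isotype control tumors of day 15 every one of the 10 genes was higher than in every culture. H2-Aa was 352, 358, 644, 621 and 564 FPKM in these 5 tumors, and Cd74 896, 781, 1852, 1518 and 1540.0. H2-DMa rose from 1.21 ± 0.0291 (SD, n = 3) to 51.0 ± 15.4 FPKM (n = 5), a log2 difference of 5.23 (SE 0.23). H2-DMb1, the gene with the highest level in culture, rose from 4.28 ± 0.728 to 79.0 ± 22.7 FPKM (log2 4.13, SE 0.24). Differences are those of a limma fit to log2(FPKM + 0.1) of every gene whose mean reached 0.5 FPKM in one or the other group, and p-values were adjusted over all of them by the Benjamini-Hochberg method. A gene passed at an adjusted p under 0.01 and was called when it was also at least 2-fold apart. All 10 genes passed, were called as higher in tumors and had groups without overlap, against a background of 20.2% (passed), 14.2% (called) and 26.3% (no overlap) of 15199 genes. The other 8 genes entered this fit through the tumors alone, since their mean in culture was under 0.5 FPKM, so this count is a description. Their fitted differences depend on the 0.1 FPKM added, and no fold is given for genes at 0. In bulk tissue, fewer cells of a type and less RNA per cell cannot be told apart.

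Markers of immune cells passed as higher in these tumors in the following numbers. All 9 macrophage markers passed, with a summed level of 8.96 to 10.5 FPKM in culture and 822 to 1294 in the isotype control tumors of day 15. Counts were 4 of 6 for cDC1, 3 of 3 tested for cDC2, 3 of 4 tested for mature dendritic cells, 3 of 3 tested for B cells, 4 of 5 for monocytes and 5 of 5 for T cells. Their part in the class II levels was not tested. The factors that bind the X box were present in culture, a choice made after their values were seen. Rfx5 was 9.96 ± 0.721 FPKM in the 3 cultures and 6.52 ± 1.11 in the 5 tumors, a log2 difference of -0.62 (limma adjusted p 0.00791). Rfxap (12.4 ± 1.89 and 11.2 ± 3.43 FPKM) and Rfxank (11.7 ± 0.397 and 11.4 ± 2.07) did not pass. Among 17 class II regulators 8 passed as higher and 2 as lower in tumors (background 16.8% lower), with a median of 0.74. They included Irf8 (4.66), Ifng (3.79) and Irf1 (1.91).

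Within the antibody study, cultured cells had the lowest mean of all 10 genes, and among its 5 tumor groups the tumors with 2 doses of PD-1 Ab had the highest. In the ordering of these means, the cultured cells stood clear of all tumors, and neighbouring tumor groups overlapped in their ranges for all 10 genes. Cd74 was the most abundant of the 10 in every tumor group, with means of 845 FPKM in baseline tumors and 4120 ± 1078 (SD, n = 5) in PD-1 Ab-treated tumors after 2 doses. In the 5 tumor groups of the antibody study the 3 chain genes followed with means of 353 to 1815 FPKM. H2-DMa and H2-DMb1 had tumor means of 31.6 to 146 FPKM. Ciita (4.16 to 18.7), H2-DMb2 (4.70 to 12.9), H2-Oa (1.07 to 3.48) and H2-Ob (0.835 to 2.997) were the low-level genes.

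**Figure D2:**
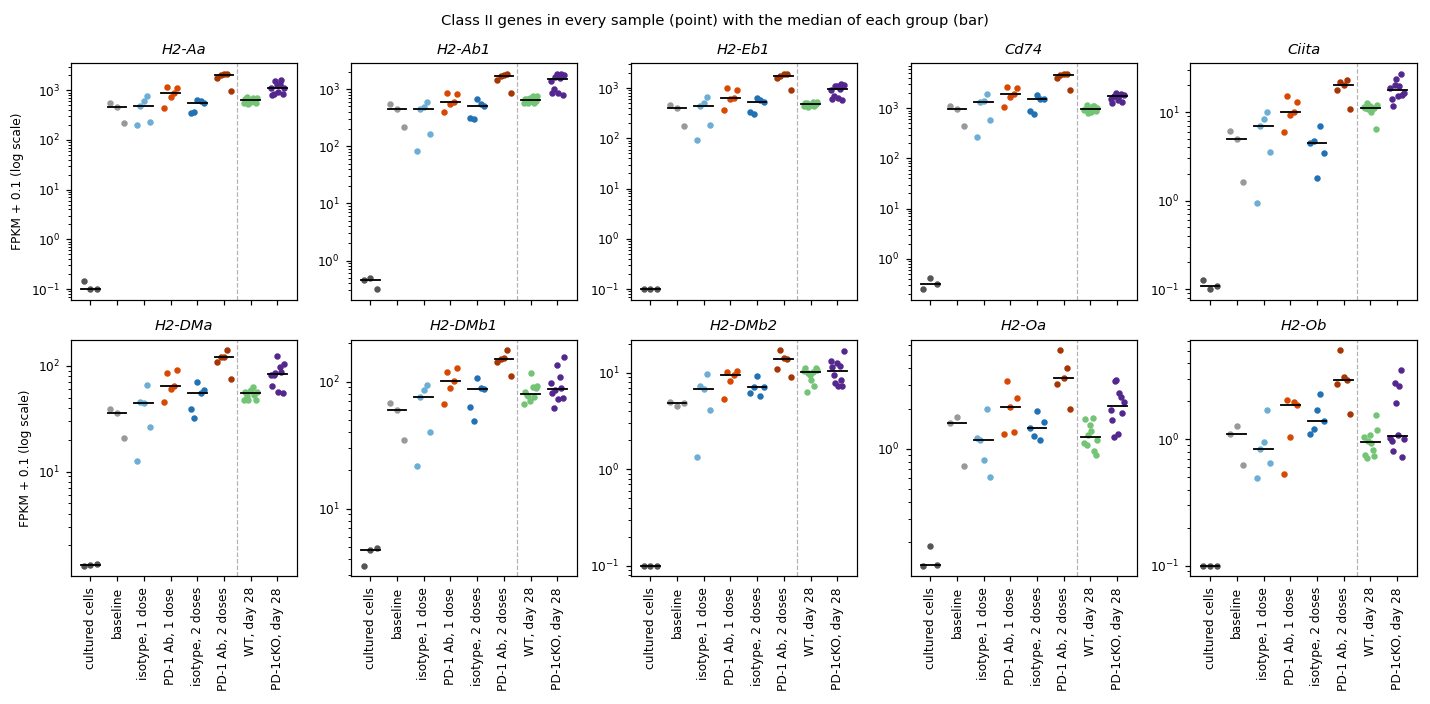
FPKM + 0.1 of the 10 class II genes (log scale) in each of the 46 samples (points), with the median of each group (bar), in 8 groups. The dashed line separates the tamoxifen-treated tumors, whose levels are not comparable with the rest. Cultured cells lie below all tumors, and within the antibody study the group with 2 doses of PD-1 Ab has the highest median.

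Class II levels of baseline tumors were compared with those of isotype control tumors of day 15, both without PD-1 blockade. Baseline tumors were untreated and carry no time, so time and the isotype antibody cannot be told apart here. H2-Aa was 454, 546 and 215 FPKM in baseline replicates 1 to 3, which overlapped the 352 to 644 of the isotype control tumors. All 10 differences were below 0 (log2 from -0.68 for H2-DMa to -0.081 for Ciita), and 0 of 10 passed (limma), against 0.18% of 14967 genes lower and 0.448% higher. Unadjusted p was under 0.05 for 2 of the 10 (H2-DMa and H2-DMb2) and for 2647 of all genes tested. H2-DMb2 was the gene whose groups did not overlap (4.38 to 4.90 FPKM in baseline and 5.70 to 9.05 in isotype control tumors), against 5.51% of all genes in this direction. Baseline replicate 3 was lowest of its group for 9 of the 10 genes and had a Ptprc level of 9.11 FPKM, against 21.0 and 24.0 in the other 2. Without it, the differences of H2-Aa (0.022), H2-Ab1 (0.16), Ciita (0.51) and H2-Oa (0.19) were above 0.

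After 1 dose of PD-1 Ab (day 11), class II levels were higher on average but the groups overlapped. H2-Aa was 441, 1185, 718, 863 and 1105 FPKM in the 5 treated tumors and 199, 476.1, 598, 767 and 230.5 in the 5 isotype control tumors. Treated replicates 2, 4 and 5 were above every control. The groups overlapped for all 10 genes, where 3.59% of all genes had none with the treated tumors higher. Ciita was 5.92, 14.99, 9.13, 9.82 and 12.96 FPKM with PD-1 Ab, and 0.847, 6.93, 8.30, 10.05 and 3.49 with isotype control. The log2 differences of the 10 genes ran from 0.65 (H2-Ob) to 1.15 (Ciita), with a median of 1.01 beside 0.26 for all genes tested. None passed (limma adjusted p 0.685 to 0.825), and neither did any of 14556 genes (0% called), so these tumors give no call for any gene. Unadjusted p was under 0.05 for 6 of the 10 genes and for 895 of all genes. For H2-Aa the difference was 1.03 (95% interval 0.17 to 1.89).

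The library with the high mitochondrial share held the lowest value in the control group for 9 of the 10 genes. Without it the differences were 0.35 (H2-DMb2) to 0.89 (H2-Oa), with a median of 0.64, and none passed. H2-Aa was then 0.78 (SE 0.36, limma adjusted p 0.299). Scaling the samples by median of ratios moved the median of all genes from 0.26 to 0.010 and that of the 10 genes from 1.01 to 0.76, and all 10 stayed above 0.

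The comparisons with cultured cells, with baseline tumors and with 2 doses of PD-1 Ab share the isotype control tumors of day 15. After 2 doses of PD-1 Ab (day 15), transcripts of nearly the whole class II pathway were higher than in isotype control tumors. The I-A chain gene H2-Aa was 1786, 2052, 2139, 2138 and 958 FPKM in PD-1 Ab-treated tumors and 352, 358, 644, 621 and 564 in isotype control tumors. Every treated tumor was above every control, and treated replicate 5 was far below the other 4. The means were 1815 ± 500.2 and 508 ± 142 FPKM (SD, n = 5 each), a log2 difference of 1.83 (SE 0.26, limma adjusted p 0.00118). Of the 10 genes, 9 passed and 7 were called as higher, against backgrounds of 6.69% and 5.03% of 15062 genes. The groups did not overlap for 8 of the 10, against 9.23% of all genes. The median difference was 1.45 for the 10 genes and -0.041 for all genes tested.

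The other chain genes followed closely. H2-Ab1, the beta chain of I-A, was 1476, 1670.4, 1781, 1820.2 and 842 FPKM with PD-1 Ab and 310.4, 298, 659.9, 543 and 499.6 with isotype control. Its log2 difference was 1.73 (SE 0.27, limma adjusted p 0.00169). H2-Eb1, a beta chain gene whose alpha partner is not made in this strain, was 1579.7, 1743, 1893, 1926 and 898 FPKM with PD-1 Ab and 330.4, 305, 639, 580.4 and 531 with isotype control. It moved as much as the I-A genes did (1.76, SE 0.26, limma adjusted p 0.00142). In all 3 genes the lowest treated tumor, replicate 5, was above the highest control, replicate 3. Cd74, which encodes the invariant chain, was 4023, 4603, 4864, 4822 and 2288 FPKM in treated tumors and 896, 781, 1852, 1518 and 1540.0 in controls. Its difference was 1.67 (SE 0.28, limma adjusted p 0.00252), again with no overlap.

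Ciita, the transactivator, had a difference as large as that of the chains or larger. It was 17.9, 21.7, 20.3, 22.9 and 10.7 FPKM with PD-1 Ab, and 4.34, 4.60, 1.68, 6.82 and 3.36 with isotype control. The means were 18.7 ± 4.86 and 4.16 ± 1.88 FPKM (n = 5 each), and the log2 difference was 2.22 (SE 0.32, limma adjusted p 0.00136). Isotype control replicate 3 had the lowest Ciita of its group and at the same time the highest H2-Aa, H2-Ab1, H2-Eb1 and Cd74. Without this tumor the difference was 1.94 for Ciita (SE 0.25) and 1.93 for H2-Aa (SE 0.26).

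The peptide editor genes moved less than the chains. H2-DMa was 109.6, 123, 123, 140.3 and 75.8 FPKM with PD-1 Ab and 39.3, 31.8, 70.3, 54.8 and 58.7 with isotype control. Its log2 difference was 1.19 (SE 0.22, limma adjusted p 0.00409), with no overlap between the groups. H2-DMb1, 1 of 2 genes for the beta chain of the editor, was 142, 151, 153, 176 and 109.8 FPKM with PD-1 Ab, and 62.8, 49.3, 106, 89.5 and 87.3 with isotype control. It passed at a difference under 2-fold (0.92, SE 0.20, limma adjusted p 0.00821). The second beta chain gene H2-DMb2 had a difference of 0.87 (SE 0.18, limma adjusted p 0.00674), from 6.94 ± 1.30 to 12.9 ± 3.04 FPKM, and 4 of 5 treated tumors were above every control. Of the 50-base stretches of H2-DMb1 transcripts, 22.7% occur in H2-DMb2 as well, so reads of these 2 genes can be assigned to the wrong copy. Of the H2-DMa stretches, 8.43% are shared with Brd2 on the opposite strand.

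The modulator genes were low and less clear-cut. H2-Oa was 2.93, 5.35, 3.28, 3.94 and 1.88 FPKM with PD-1 Ab and 1.32, 1.15, 1.83, 1.05 and 1.47 with isotype control. Its difference was 1.23 (SE 0.26, limma adjusted p 0.00768), and the lowest treated tumor (1.88) was just above the highest control (1.83). H2-Ob was 2.63, 4.98, 3.02, 2.85 and 1.51 FPKM with PD-1 Ab and 1.00, 1.11, 1.60, 2.20 and 1.30 with isotype control. It did not pass (0.96, 95% interval 0.31 to 1.62, limma adjusted p 0.0374), and treated replicate 5 lay within the control range. Treated replicate 2 was highest for both genes and also had the highest B cell markers (summed level 31.5 FPKM, Cd79a 6.10). Without it the difference was 1.06 for H2-Oa and 0.76 for H2-Ob, and neither passed. H2-Oa also fell short without treated replicate 1, 3 or 4 and without isotype control replicate 1, 2, 4 or 5 (log2 1.15 to 1.27), and H2-Ob passed without treated replicate 5 (1.18, limma adjusted p 0.00677). Of the H2-Oa stretches, 15.5% are shared with an antisense gene on the opposite strand.

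The 4 genes H2-Aa, H2-Ab1, H2-Eb1 and Ciita passed under all 19 alternatives tried. The count of genes passing fell from 9 to 5 without isotype control replicate 1 and without treated replicate 1, 2 or 4, and to 4 without treated replicate 3, when 4 were also called.

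Other genes of the pathway were read from lists set by function. Of 10 genes for endosomal processing and turnover, 6 passed as higher and 0 as lower (background 1.56% lower), with a median of 1.07. They included Ctss (log2 1.67), the cathepsin that trims the invariant chain, March1 (1.76), a ligase that removes class II from the surface, Ctsb (1.22), another cathepsin, and Cd83 (1.13), which opposes March1. Of 17 regulators of class II transcription, 6 passed as higher and 0 as lower, with a median of 0.29. They included Ifng (2.52), the inducer of Ciita in many cells, Irf8 (1.58), a factor of macrophages and dendritic cells, and Socs1 (0.89), a brake on interferon signalling. None of Rfx5, Rfxap and Rfxank passed. Both class II receptors of T cells were called, Lag3 with 2.44 and Cd4 with 1.72.

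Markers of cells known to carry class II moved unevenly in the same tumors. Of 9 macrophage markers 7 passed as higher, and their summed level was 1526 to 3178 FPKM with PD-1 Ab and 822 to 1294 with isotype control. Of 6 cDC1 markers 4 passed (Xcr1 1.98, Clec9a 1.72, Cadm1 1.49 and Itgae 1.43), with sums of 31.6 to 47.9 against 16.4 to 27.8 FPKM. The cDC2 list had 1 of 4 (Clec10a), the mature dendritic cell list 1 of 5 (Il12b), the monocyte list 1 of 5 (Ly6c2) and the B cell list 1 of 5 tested (Cd22). The cDC2 sums were 33.5 to 54.9 FPKM with PD-1 Ab and 19.7 to 31.0 with isotype control, without overlap. The mature dendritic cell sums were 152 to 212 FPKM with PD-1 Ab and 195 to 296 with isotype control, lower for the most part. In cultured MC-38 cells, however, this sum was already 170 to 180 FPKM. The median log2 difference of the 5 genes on this list was 1.21, so the sum does not show how these cells moved. The B cell sums of 3.17 to 31.5 FPKM with PD-1 Ab and 2.93 to 7.76 with isotype control overlapped. All 5 T cell markers, Cd4 among them, passed, with sums of 28.9 to 113 against 8.11 to 16.1 FPKM. Single markers of fat (Plin1, 2.99), skeletal muscle (Acta1, 3.98) and endothelium (Pecam1, 1.496) passed as higher too, and of 3 neutrophil markers tested 1 passed as higher and 1 as lower. The part of these cells in the class II differences was not tested.

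Ratios of genes within a tumor, taken as FPKM + 0.1, depend next to nothing on the scaling of the sample. H2-Aa per Csf1r, a macrophage receptor, was 13.9 to 16.7 with PD-1 Ab and 8.66 to 20.7 with isotype control after 2 doses. The log2 difference of this ratio was 0.37, with overlap (exact two-sided permutation p 0.159, adjusted p 0.476). H2-Aa per Ptprc also overlapped (26.3 to 102 and 17.6 to 60.6, difference 0.41, exact permutation p 0.46). Without treated replicate 4, which had the ratio of 102, the difference was 0.043. Leaving out each tumor in turn gave 0.043 to 0.695, and the highest control ratio was that of replicate 3.

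The ratio of H2-DMa to H2-Aa separated the groups of day 15. It was 0.0573 to 0.0792 with PD-1 Ab (median 0.0614) and 0.0884 to 0.112 with isotype control (median 0.104). There was thus less editor transcript per chain transcript in each treated tumor than in any control, with a log2 difference of -0.64 (exact two-sided permutation p 0.00794, the smallest that 252 splits can give). Over the 24 ratio tests the adjusted p was 0.19, which does not pass. With no other ratio as low, this smallest p always gives 0.19 over 24 tests. A single separated ratio thus could not pass here, and the adjusted p does not decide whether this ratio differed. In PD-1cKO tumors the same ratio was 0.0551 to 0.0957 (median 0.0739), and in WT tumors 0.0710 to 0.104 (median 0.0884), with a difference of -0.24 (permutation p 0.0357, adjusted p 0.381). After 1 dose it was 0.0724 to 0.102 and 0.0636 to 0.114 (difference -0.040, exact permutation p 0.833). Each of these 3 comparisons has its own controls. The ratios of H2-Ab1, H2-Eb1, Cd74 and Ciita to H2-Aa and of H2-Ob to H2-DMa overlapped in all 3 comparisons. Of 24 tests none passed at an adjusted p under 0.05, which a single separated ratio in the exact tests could not reach.

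**Figure D3:**
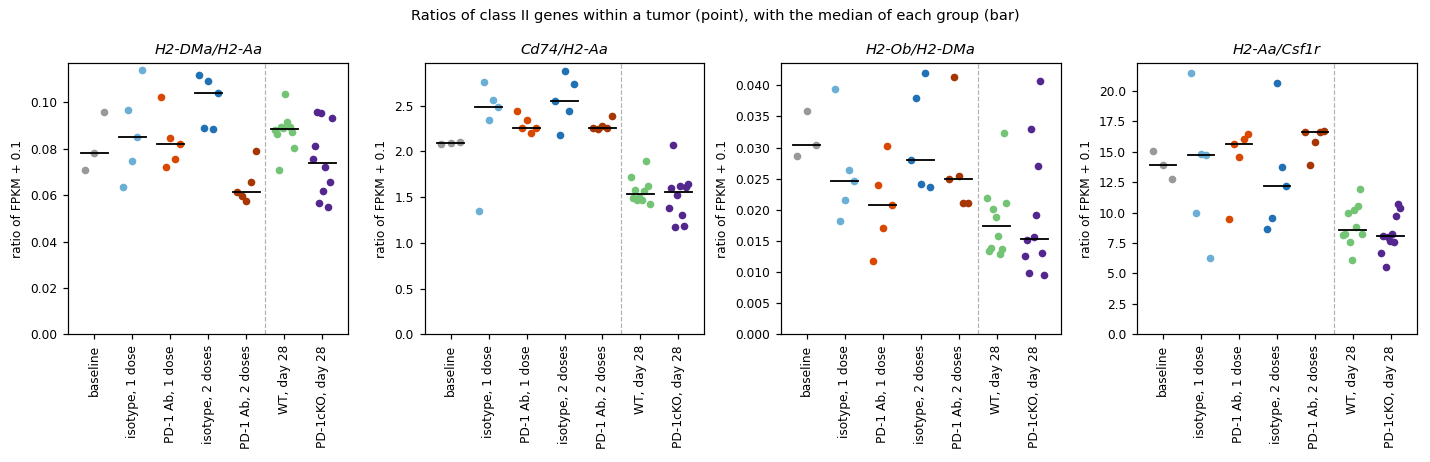
Ratios of FPKM + 0.1 between 2 class II genes, or H2-Aa and Csf1r, in each tumor (points) with the median of each group (bar), for 7 tumor groups. H2-DMa per H2-Aa after 2 doses is 0.0573 to 0.0792 with PD-1 Ab and 0.0884 to 0.112 with isotype control, and the other ratios overlap between antibody and isotype.

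Whether the second dose changed the class II response was tested as the difference between the differences of day 15 and day 11. It was above 0 for all 10 genes, from 0.059 (H2-DMb2) to 1.08 (Ciita, 95% interval -0.35 to 2.51), and 0 of 10 passed (limma), as did 0% of 15289 genes. Unadjusted p was under 0.05 for 0 of the 10 genes and 1182 of all. Without the library with the high mitochondrial share the median of the 10 genes was 0.79 in place of 0.49, Ciita was 1.65 (SE 0.49, limma adjusted p 0.143), and none passed. With array weights 2 of the 10 passed, Ciita (1.60, limma adjusted p 0.00539) and H2-Ab1 (1.54 in place of 0.60, limma adjusted p 0.009). The share of all genes passing with these weights was not computed, so this count has no background. The number of doses and the day differ together and cannot be told apart.

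In the deletion model, the class II chains and Cd74 were higher in every PD-1cKO tumor than in any WT tumor. H2-Aa ran from 797 through a median of 1110.0 to 1597 FPKM in the 10 PD-1cKO tumors and from 536 through 622 to 725 in the 10 WT tumors. H2-Ab1 was 777, 1483 and 1857 FPKM (lowest, median, highest) in PD-1cKO and 575, 649 and 759 in WT tumors. H2-Eb1 was 589, 944 and 1227 FPKM against 426, 475.9 and 541. WT tumors lay close together and PD-1cKO tumors spread widely. The log2 differences were 0.84 (SE 0.14) for H2-Aa, 0.98 (SE 0.17) for H2-Ab1 and 0.86 (SE 0.15) for H2-Eb1. Their limma adjusted p-values were 7.26e-04, 8.34e-04 and 7.66e-04. Cd74 was 1278, 1757 and 1980.2 FPKM against 787, 972 and 1142, a difference of 0.77 (SE 0.12, limma adjusted p 6.25e-04).

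Of the 10 genes, 7 passed as higher, against 8.78% of 15075 genes, and 0 were called, since none reached 2-fold on the log scale of the fit (4.2% of all genes were called as higher). The groups did not overlap for 4 of the 10, against 0.643% of all genes. The median difference was 0.73 for the 10 genes and -0.20 for all genes tested. Scaling by median of ratios moved the median of all genes to -0.043 and that of the 10 genes to 0.89, and 3 genes were then called. Leaving out PD-1cKO replicate 2, 3, 6 or 9 or WT replicate 7 or 10 gave 1 call.

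Ciita was 11.7, 17.5 and 27.0 FPKM in PD-1cKO tumors and 6.31, 11.0 and 12.7 in WT tumors. Its difference of 0.73 (SE 0.14, limma adjusted p 0.00145) passed, and 9 of 10 PD-1cKO tumors were above every WT tumor. H2-DMa was 55.3, 83.8 and 125 FPKM against 47.8, 54.8 and 63.7 (0.60, SE 0.13, limma adjusted p 0.00261), with 8 of 10 above. H2-Oa was 1.13, 1.9999 and 3.17 FPKM against 0.803, 1.1195 and 1.61 (0.73, SE 0.19, limma adjusted p 0.00623), with 7 of 10 above. These 3 genes overlapped between the groups in their lower PD-1cKO tumors. H2-Oa no longer passed in 15 of 30 alternatives, among them leaving out PD-1cKO replicate 4, 5, 7 or 8.

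Both beta chain genes of the editor and H2-Ob did not pass. H2-DMb1 was 62.3, 87.3 and 156 FPKM in PD-1cKO and 66.3, 80.2 and 118 in WT tumors (0.16, 95% interval -0.16 to 0.47, limma adjusted p 0.396). H2-DMb2 was 7.17, 10.3 and 16.6 FPKM against 6.24, 10.0 and 11.1 (0.13, interval -0.20 to 0.45, limma adjusted p 0.515). For H2-Ob the values were 0.622, 0.958 and 3.48 FPKM against 0.616, 0.853 and 1.45 (0.57, interval -0.0072 to 1.15, limma adjusted p 0.0984). PD-1cKO replicates 4, 5, 7 and 8 had H2-Ob levels of 2.72, 1.84, 2.53 and 3.48 FPKM and the other 6 at most 0.98.

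The runs of sample identifiers were entered as a covariate, since the first run holds 7 PD-1cKO tumors and no WT tumor. The log2 differences were then 1.00 (SE 0.26) for H2-Aa, 1.15 for H2-Ab1, 1.05 for H2-Eb1, 0.85 for Cd74 and 0.97 for Ciita. These were no smaller than before, but none of the 10 passed (limma adjusted p 0.0257 for H2-Aa). Within the second run the only PD-1cKO tumor, replicate 8, was above all 9 WT tumors for 8 of the 10 genes, H2-DMb1 and H2-DMb2 being the exceptions (H2-Aa 1597 against 536 to 725 FPKM). This tumor had the highest H2-Aa, H2-Ab1, H2-Eb1, Ciita and H2-Ob of all PD-1cKO tumors. Within the third run both PD-1cKO tumors were above the only WT tumor for 6 of the 10 (H2-Aa 845 and 1129 against 698 FPKM). Run and label overlap so far that they can be separated only in part.

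Of the 10 endosomal genes, 6 passed as higher and 0 as lower in PD-1cKO tumors, with a median of 0.61. The largest were the cathepsin genes Ctsd (1.71), Ctsb (1.33) and Ctss (0.76), and Lgmn (0.88), a protease that acts early on the invariant chain. Of 17 regulators 2 passed as higher, Irf8 (1.06) and Ifng (1.02), and 1 as lower, Nfyb (-0.84), which encodes a subunit of NF-Y, and their median was 0.010 (12.6% of all genes passed as lower). Lag3 (1.62) and Cd4 (1.08) were called. Macrophage markers passed in 6 of 9 (sums 1376 to 4600 FPKM in PD-1cKO and 955 to 1589 in WT tumors) and T cell markers in 5 of 5. Passing counts were 1 of 5 tested for cDC1 (Batf3, 0.81), 1 of 4 for cDC2 (Clec10a, 1.37), 1 of 5 for monocytes (Chil3, 2.75), 0 of 5 for mature dendritic cells (sums 39.0 to 104 FPKM in PD-1cKO and 79.7 to 139 in WT tumors) and 1 of 2 tested for B cells (Cd22, 1.83). The mature dendritic cell list, whose sum was 170 to 180 FPKM in cultured MC-38 cells, had a median log2 difference of -0.063. B cell sums were 5.19 to 21.3 FPKM in PD-1cKO and 2.47 to 5.76 in WT tumors. Fibroblast markers passed in 2 of 4 (Col1a2, 1.94, and Col1a1, 1.68). The part of these cells was not tested. H2-Aa per Csf1r was 5.53 to 10.7 in PD-1cKO and 6.08 to 11.9 in WT tumors, a difference of -0.12 (permutation p 0.36).

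The antibody and the deletion were compared by the difference between their differences, the response to 2 doses of PD-1 Ab minus the response under the PD-1cKO label. All 10 values were above 0, from 0.39 (H2-Ob) to 1.49 (Ciita), with a median of 0.76 beside 0.23 for all genes. None passed (limma), against 0.0853% of 16404 genes higher and 0.0122% lower. Unadjusted p was under 0.05 for 8 of the 10 and for 2585 of all genes. Ciita was nearest to passing (1.49, SE 0.32, limma adjusted p 0.0266), and it passed without isotype control replicate 4 or without treated replicate 5 of the 2-dose groups. The outcome also turned on how the tumors were weighted. With array weights 8 of the 10 passed and 5 were called (H2-Aa 1.46, SE 0.22, limma adjusted p 1.02e-04). The share of all genes passing with these weights was not computed, so these counts have no background. For H2-Aa the difference was 0.99 (95% interval 0.42 to 1.56, limma adjusted p 0.096). Time after implant, tamoxifen, the share of short noncoding RNA and the kind of blockade differ together between the models and cannot be told apart.

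**Figure D4:**
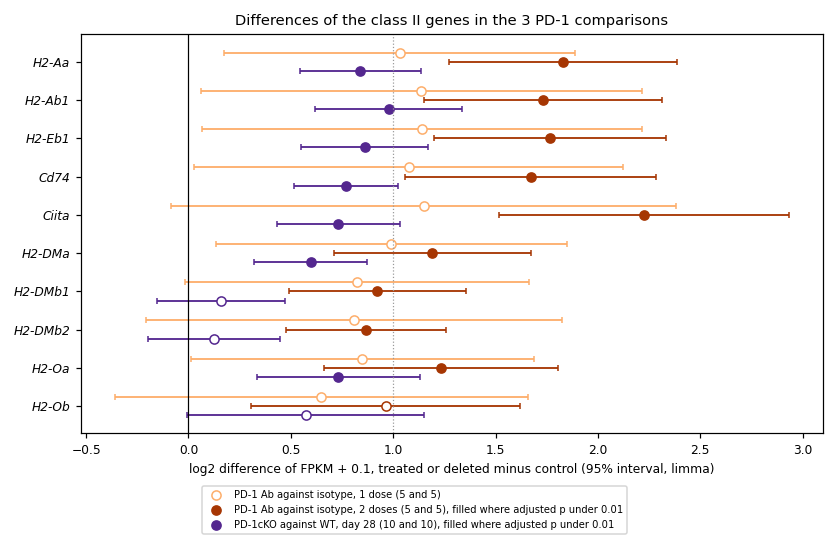
Log2 differences of FPKM + 0.1 (x axis) with 95% limma intervals for the 10 class II genes in 3 comparisons: PD-1 Ab against isotype after 1 dose and after 2 doses (5 and 5 tumors each), and PD-1cKO against WT (10 and 10). Filled points passed at an adjusted p under 0.01, 9 of 10 after 2 doses, 7 of 10 for PD-1cKO and 0 of 10 after 1 dose, and the dotted line marks 2-fold.

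The genes also varied together among tumors of a group. After each group's mean was taken from the log2 values, Pearson's r between the 3 chain genes and Cd74 was 0.92 to 0.99 over 43 tumors (6 pairs). H2-DMa and H2-DMb1 correlated with them at 0.81 to 0.96, and Ciita at 0.75 to 0.78. H2-DMb2 (0.59 to 0.75) and the modulator genes H2-Oa and H2-Ob (0.49 to 0.77) were further apart. Chains and invariant chain thus formed a tight block, with H2-DMa and H2-DMb1 close to it, while H2-DMb2 and the modulator genes lay in a common lower range. Without isotype control replicate 1 of day 11, an alternative chosen after the data were seen, the same ranges were 0.91 to 0.98, 0.77 to 0.94, 0.60 to 0.72, 0.49 to 0.60 and 0.60 to 0.77. These are descriptions over bulk tumors of both studies, which differ in their share of short noncoding RNA. The part of library preparation and cell composition in these correlations was not tested.

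**Figure D5:**
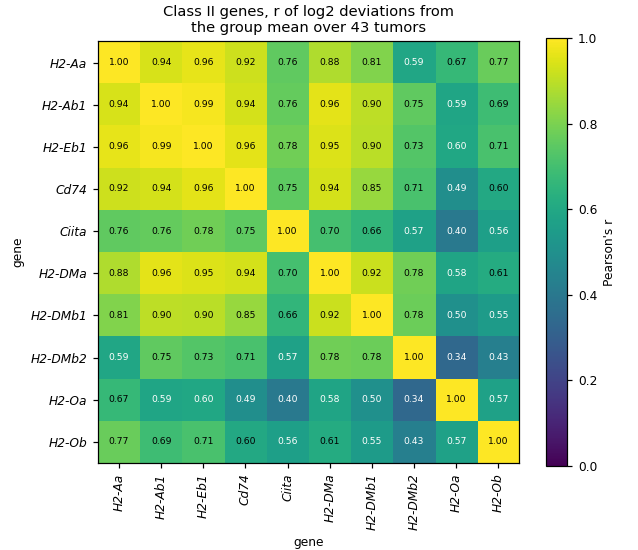
Pearson's r between the 10 class II genes over 43 tumors, from log2 values with the mean of each group removed. The colour scale runs from 0 to 1 and each cell gives r. The chain genes and Cd74 lie at 0.92 to 0.99 with each other, and H2-Oa and H2-Ob at 0.49 to 0.77 with them.

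The genes most like the mean of H2-Aa, H2-Ab1, H2-Eb1 and Cd74 by the same measure were sought among the 13228 genes that averaged 1 FPKM or more over the tumors. The 8 closest were Tbx21 (r 0.895), the T-bet gene of T and NK cells, C1qa (0.879) and C1qb (0.867), complement genes of macrophages, Unc13d (0.878), Vav1 (0.878), Itgb7 (0.876), Selplg (0.872) and Fermt3 (0.870), genes of leukocytes in general. Without isotype control replicate 1 of day 11 the first place went to Zap70 (0.877, 42 tumors), a kinase of the T cell receptor, before Tbx21 (0.864), and C1qb fell to place 11.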

How the data were processed

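RNA was measured in 46 samples of 8 groups, which were taken from the sample labels. The authors prepared stranded total RNA libraries after ribosomal RNA removal, read paired ends of 50 bases, aligned them to the mouse genome B38 with the Omicsoft aligner, quantified Ensembl genes and deposited FPKM. Read counts cannot be rebuilt from these values (3743 lie between 0 and 1e-06), depth per sample is unknown, and precision is given by the spread between replicates.

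For each comparison, log2(FPKM + 0.1) of the samples of its own groups entered lmFit and eBayes (with a trend) of limma 3.58.1, under R 4.3.3. Genes were kept where one of the group means reached 0.5 FPKM. The study tested counts, so this test stands in for its own. The fold changes understate those of low genes. Benjamini-Hochberg adjustment covered all genes of a fit. Differences between models or doses were contrasts over 4 groups in 1 fit. Ratios were compared by two-sided permutation tests, exact for 5 against 5 tumors and with 100000 resamples for 10 against 10. The fit was tested on simulated data. Python 3.11.15 with pandas 2.3.3, numpy 2.4.6 and scipy 1.17.1 read the tables, and matplotlib 3.10.9 drew the figures.

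All 10 genes are named in every comparison. Of the other lists at most 4 genes per comparison are named, those that passed with the largest differences (some genes of these lists are not reported here), and the RFX genes were named after their values were seen. The genes, lists and tests were chosen with earlier results of these data known. Shared sequence is the share of 50-base stretches of a gene's GENCODE M21 transcripts found in another gene. Promoter sequences are from RefSeq (GRCm38.p6), which matched 7 of the 10 genes. Alternatives were a pseudocount of 1, no filter, a filter at 1 FPKM, scaling by upper quartile or by median of ratios, eBayes without a trend, array weights, a single fit of all tumors, a block for the replicate number, identifier runs as a covariate, and leaving out each replicate. No sample was left out of the results given first.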

Additional observations from a re-analysis of the deposited data

Results flagged for a closer look

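The genes and ratios were examined for tumors that stood apart from their group, by the gap to the nearest tumor as a share of the group's range (Dixon's 95% limit). Of 108 groups (18 measures), 12 held such a tumor, where chance alone gives about 1 in 20. Levels stood apart for 2 genes, both in WT tumors. Ciita was 6.308 FPKM in replicate 9, under the 9.92 to 12.7 of the other WT tumors, and H2-DMb1 was 117.7 FPKM in replicate 6, over the next value of 93.1.

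The other 10 were ratios. In PD-1 Ab-treated tumors after 2 doses, H2-Aa per Ptprc was 101.9 in replicate 4 and at most 32.2 in the other 4, where Ptprc was 20.9 FPKM in replicate 4 and 36.4 to 74.2 in the others. In the same group Cd74 per H2-Aa was 2.388 in replicate 5, and H2-Ob per H2-DMa was 0.04131 in replicate 2, the tumor with the highest B cell markers. After 1 dose of PD-1 Ab, H2-Aa per Csf1r was 9.441 in replicate 1 and H2-Eb1 per H2-Aa was 0.7399 in replicate 4. In isotype control tumors, H2-Ab1 per H2-Aa was 1.025 in replicate 3 after 2 doses, and Ciita per H2-Aa was 0.004748 in replicate 1 after 1 dose, the library with the high mitochondrial share. In PD-1cKO tumors H2-Eb1 per H2-Aa was 1.001 in replicate 10 and Cd74 per H2-Aa was 2.067 in replicate 3. In WT replicate 9, the tumor with the lowest Ciita, H2-Ob per H2-DMa was 0.03239.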

How the results depend on the processing

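Of 2425 results recomputed under an alternative, 2286 were counted as unchanged, 73 fell short of the threshold and 14 newly passed. Another 25 changed sign and 27 counts moved by over 1.5 times. For genes, unchanged meant the same direction and side of the threshold. For ratios, none of which passed, changes of sign were not counted. Ciita per H2-Aa after 1 dose, for example, went from 0.12 to -0.0997 with a pseudocount of 1. The causes were not tested. Shares of all genes passing or called were computed for the results given first only, so counts under an alternative have no background. After 2 doses of PD-1 Ab the called genes fell from 7 to 4 and the passing genes from 9 to 4 with no filter on low values, which tests more genes, and likewise to 4 and 4 with the replicate number as a block. Leaving out 1 replicate gave 4 to 9 called and 4 to 10 passing genes. H2-DMa no longer passed in 7, H2-Oa in 12, H2-DMb1 in 14 and H2-DMb2 in 14 of 19 alternatives, and Cd74 in 3.

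For PD-1cKO against WT, 3 genes in place of 0 were called with median-of-ratios or upper-quartile scaling, and 0 in place of 7 passed with the runs of identifiers as a covariate, where H2-DMb2 was -0.049. Leaving out 1 replicate gave 0 to 1 called and 6 to 7 passing genes. For the difference between the models, array weights gave 5 called and 8 passing genes, and leaving out 1 replicate 0 to 1 of each. For the difference between the doses, array weights gave 2 called and 2 passing genes (Ciita and H2-Ab1).

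Among the genes, signs changed only for those that did not pass. For baseline against isotype control tumors, array weights gave H2-Aa 0.11, H2-Ab1 0.27, H2-Eb1 0.018, Ciita 0.14 and H2-Oa 0.13, and the replicate block gave Ciita 0.14. Leaving out 1 replicate there gave H2-Aa -0.65 to 0.022, H2-Ab1 -0.51 to 0.16, Ciita -0.45 to 0.51 and H2-Oa -0.42 to 0.19. For the difference between the doses, leaving out 1 replicate gave H2-DMa -0.038 to 0.55, H2-DMb1 -0.092 to 0.44, H2-DMb2 -0.19 to 0.52 and H2-Ob -0.016 to 0.53.

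The numbers of the replicates do not pair the samples, since the correlation of same-numbered tumors after removing group means was -0.21 to 0.039 after 2 doses, -0.17 to 0.16 after 1 dose and -0.19 to 0.11 for PD-1cKO and WT. With 5 tumors per group and unknown depth per sample, the size of the smallest differences that could be missed is not known.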

Other observations

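The table holds 2 further class II rows. H2-Ea-ps, the inactive E alpha gene of this strain, was 6.496 FPKM in PD-1 Ab replicate 3 after 1 dose and at most 0.583 in every other sample. H2-Eb2 was 0 to 1.56 FPKM over all 46 samples and was highest in WT replicate 6.

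Cd74 per H2-Aa had medians of 2.26 to 2.55 in the 4 antibody and isotype groups and of 2.09 in baseline tumors. In WT and PD-1cKO tumors the medians were 1.53 and 1.56. Time after implant, tamoxifen and the share of short noncoding RNA differ together between these studies, and this difference was not tested.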
